A study of Mus musculus with 6 samples.

Results

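Serpins are described here in the livers of mice with and without SIRT1, an NAD-dependent protein deacetylase. The members are the 54 genes whose name in the array annotation starts with Serpin, of 27962 gene names on the array. They are read by 73 of its 41174 probes other than control spots. The letter after the word Serpin gives the clade, a branch of the family tree, and it was used to order the probes. The members are a family defined by sequence and not by any value measured here.

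Male mice of 10 weeks on chow with free access to food were killed at 4 pm, and the strain background of both groups was 95% C57BL/6. The Control group carried the floxed allele (Lox control), and in the SIRT1 LKO group SIRT1 was knocked out in the liver, by hepatocyte-specific deletion per the series title. The labels do not say which Cre line was used. RNA of 2 animals was pooled per array, so that 3 Control and 3 LKO pools stood for 6 animals a group, and p-values measure the spread between pools. Whole liver holds many cell types, so fewer cells of a type and less RNA per cell cannot be told apart in any value below.

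A serpin inhibits its target protease by a suicide mechanism: the protease cuts an exposed loop, the serpin snaps into a new fold and the enzyme is trapped in a covalent complex. Some members have lost inhibition and carry hormones, fold collagen or act as signals. Hepatocytes secrete most of the serpins of plasma, which restrain leukocyte elastase, thrombin, plasmin and the first complement enzymes, whereas clade B members lack a classical signal peptide and mostly act inside cells.

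Values are log2 signals relative to the 75th percentile of each array, given for pools 1, 2 and 3 in that order, and the number of arrays limits their precision. A probe's level depends on its own sequence, so levels of different probes are not set against each other as amounts. Probes entered the test if the 3 arrays of either group all read them well above background, and 23578 did, among them 40 Serpin probes of 33 genes. Each was tested with limma, adjusting by Benjamini-Hochberg over all 23578, at a threshold of 0.05. LKO pool 3 had a 75th percentile of 1289 against 1005 to 1056 in the other arrays, and 52.1% to 66.3% of all probes were above background. The Control pools lay on 1 slide and the LKO pools on the other two, so slide and genotype cannot be told apart. In LKO pool 3 the scanner file and the deposited value table differed, matching within 1% for 0.853% of probes against 99.8% in each other array. Which of them holds the pool is not settled by the files, and the scanner file was used unless stated. The 2 Sirt1 probes differed by -0.02 and -0.24 between LKO and Control. Which exons were deleted is not stated in the labels, so these probes do not check the genotype.

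Sequences are shown for the gene that passed the test and for the Serpina1 copies, whose likeness limits what their probes can tell apart. The Serpine2 probe lies on chromosome 1 at chr1:80011225-80013842 of mm7, minus strand. Its 60 bases cover 2618 bases of genome, so it crosses at least 1 intron.
Serpine2 probe: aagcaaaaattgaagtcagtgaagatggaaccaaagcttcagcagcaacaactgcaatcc
The 150 bases before the Serpine2 start in RefSeq (GRCm38.p6, chr1:79858666-79858815, minus strand) hold 5 overlapping or single matches to GGGCGG, a GC box, in capitals.
Serpine2 promoter: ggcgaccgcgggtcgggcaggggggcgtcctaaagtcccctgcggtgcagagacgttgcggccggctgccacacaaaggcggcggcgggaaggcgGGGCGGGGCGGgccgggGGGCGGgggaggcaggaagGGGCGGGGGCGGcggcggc
Windows of 76 bases upstream of the starts of Serpina1b (chr12:103738200-103738275), Serpina1d (chr12:103773634-103773709) and Serpina1e (chr12:103956960-103957035), all GRCm38.p6 and minus strand, each hold 1 match to GTTAAT, a short element of the liver factor HNF1, in capitals.
Serpina1b promoter: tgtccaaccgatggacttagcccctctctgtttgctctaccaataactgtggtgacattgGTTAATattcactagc
Serpina1d promoter: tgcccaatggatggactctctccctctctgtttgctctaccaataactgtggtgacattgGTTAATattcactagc
Serpina1e promoter: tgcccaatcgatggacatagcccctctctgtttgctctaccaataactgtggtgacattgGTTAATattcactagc

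The Serpina1b and Serpina1e windows differed at 3 bases, Serpina1b and Serpina1d at 7, and Serpina1d and Serpina1e at 6. Of 13 motifs searched on both strands in RefSeq promoters of 44 member genes (250 bases before to 50 after the start), those named here were chosen after their matches were seen. GTTAAT lay in a promoter of 9 of the 44 genes (20.5%) and in 7.1% of all 32851 promoters. Shares of the members count genes here, and shares of all count promoters. GGGCGG lay in 8 (18.2%, against 35.7% of all), and TATAAA, the TATA box, in 15 (34.1%, against 13.6%). The full palindromic HNF1 site was in none of the 44 and in 0.00913% of all. A match is a description of these letters and not of binding.

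The clades differed in how many of their probes gave a signal. Of all 73 probes, 38 were above background on all 6 arrays, 11 on some and 24 on none. In clade A, the large group of secreted serpins that includes alpha-1-antitrypsin, 19 of 25 probes were above background on all arrays. These 20 genes lie on chromosome 12 except Serpina7, on chromosome X. In clade B 20 of 35 probes were above background on no array, and 11 of its 24 genes had no probe above background on any array. Those 24 genes lie 12 on chromosome 1 and 12 on chromosome 13. Every probe of Serpinc1, Serpind1, Serpinf1, Serpinf2, Serping1 and Serpinh1 was above background on all 6 arrays. Serpini1 (neuroserpin) and Serpini2 were each above background on 1 array and were not tested.

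**Figure D1:**
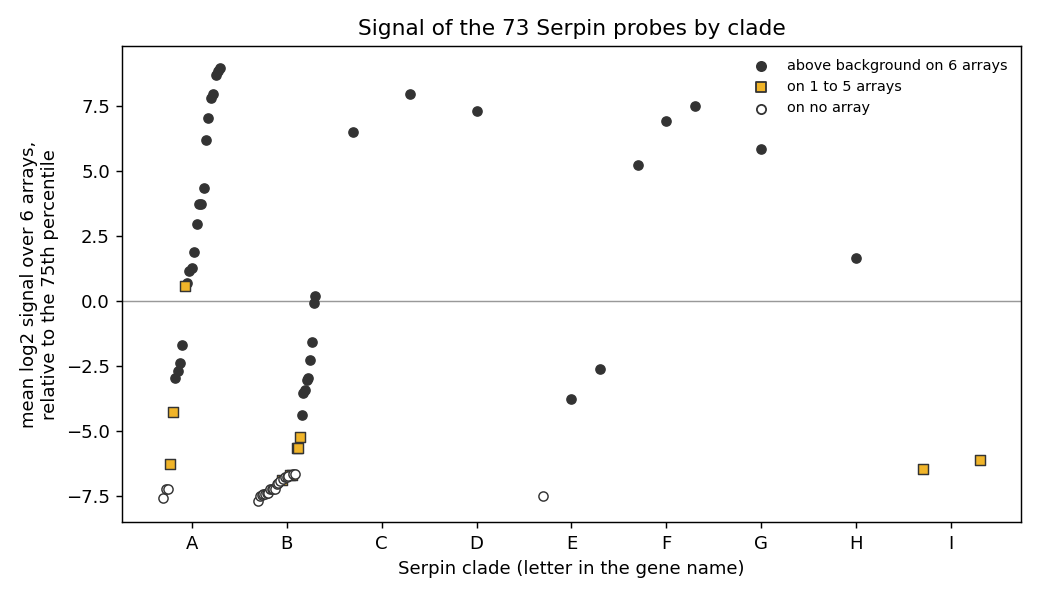
Mean log2 signal over the 6 arrays (vertical axis, relative to each array's 75th percentile) for the 73 Serpin probes, ordered by clade along the horizontal axis and by level within a clade. Filled circles are probes above background on 6 arrays, squares on 1 to 5 and open circles on none. The 20 open circles of clade B lie at the bottom, with some squares among them.

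Across the family 1 probe passed the test, Serpine2, which was lower in LKO livers. Among all probes 15 of 23578 did (0.0636%), of which 14 were lower (0.0594%) and 1 higher (0.00424%). Of the 40 tested Serpin probes 13 were higher, 26 lower and 1 at 0, and 21 differed by no more than 0.2. Their median difference was -0.10, beside 0.02 for all tested probes, of which 47.3% were lower. All 3 LKO pools lay below all 3 Control pools for 9 Serpin probes (22.5%) and above them for none. The same held for 14.0% of all tested probes in the lower direction, 14.9% in the higher and 28.9% in either. This count rested on LKO pool 3: 6 Serpin probes were wholly higher and 7 wholly lower with the value table (34.1% of all tested probes in either direction), and without the pool 7 and 10 (51.7%). The median difference was 0.03 with the value table and -0.06 without the pool. At an unadjusted p under 0.05 there were 7 Serpin probes, all lower, where 10.5% of all tested probes were lower at that level and 21.2% in either direction.

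**Figure D2:**
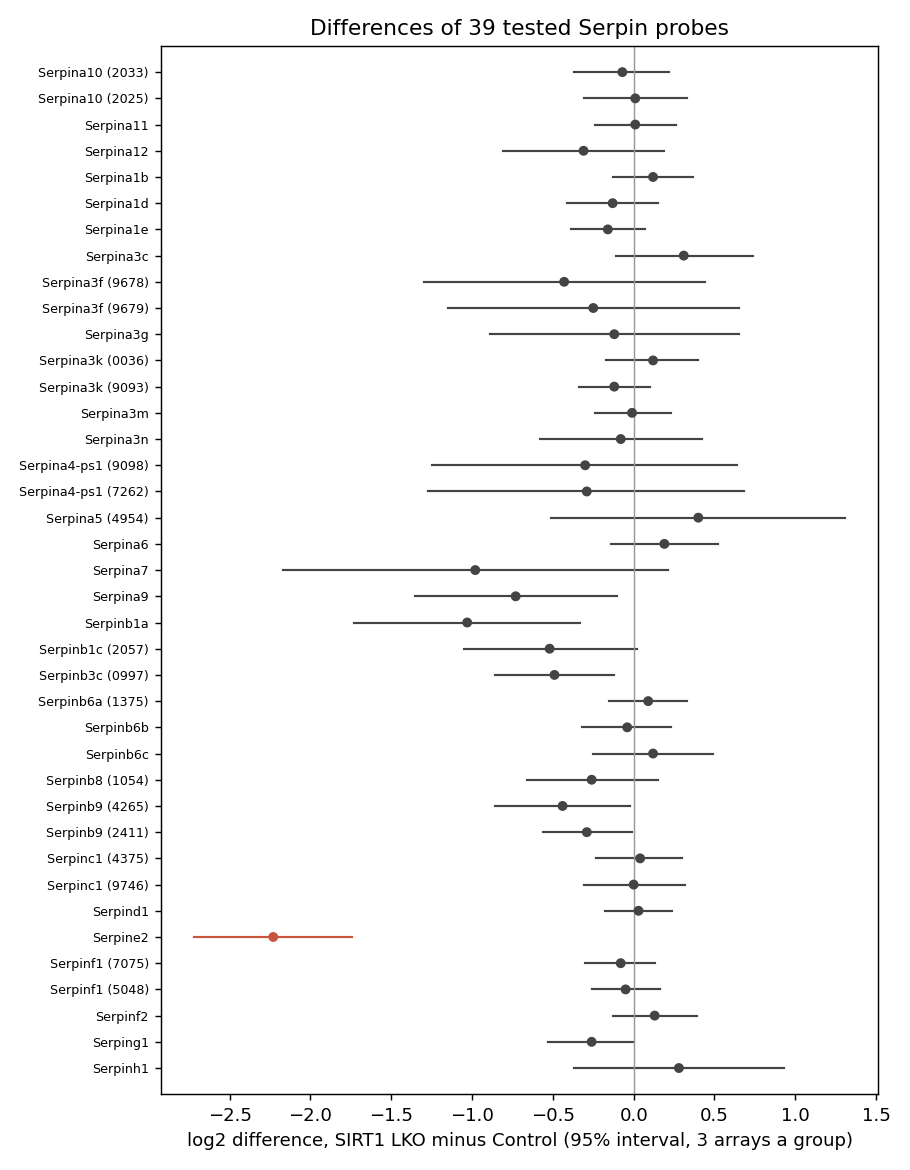
Log2 difference between SIRT1 LKO and Control (horizontal axis) with its 95% interval from limma for 39 of the 40 tested Serpin probes, by clade; where a gene has several probes, the last 4 characters of the probe name are in brackets. Serpine2, in red at -2.23, is the probe past the threshold, and most intervals of the other probes include 0.

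Serpine2 encodes protease nexin-1, an inhibitor of thrombin, urokinase and plasmin that is held at the cell surface. Its levels were -1.58, -1.32 and -1.66 in the Control pools and -3.43, -4.15 and -3.67 in the LKO pools. All LKO pools were low and the groups lay far apart. The means were -1.52 ± 0.18 and -3.75 ± 0.37 (SD, n = 3 each). The difference was -2.23 on the log2 scale (SE 0.20, 95% interval -2.72 to -1.74), a level 4.69-fold lower, with a limma adjusted p of 0.0394. The value table put LKO pool 3 at -4.28 and the difference at -2.43 (adjusted p = 0.0429), and without that pool it was -2.27 (adjusted p = 0.042). The call was lost with the slide as a random block (difference -2.22, adjusted p = 0.264), without the filter on dim probes (-2.23, adjusted p = 0.257), and without any one Control pool or LKO pool 1 or 2 (-2.39 to -2.03, adjusted p = 0.087 to 0.181). The size of the difference fell with normexp background correction, to -1.23 (adjusted p = 0.725). Serpine2 is known from fibroblasts and smooth muscle among other cells. The 8 stellate cell and fibroblast markers were 4 higher and 4 lower with a median difference of 0.03, and their summed level (log2) was 5.75 to 5.92 in Control and 5.57 to 5.72 in LKO pools; their part in the result was not tested.

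**Figure D3:**
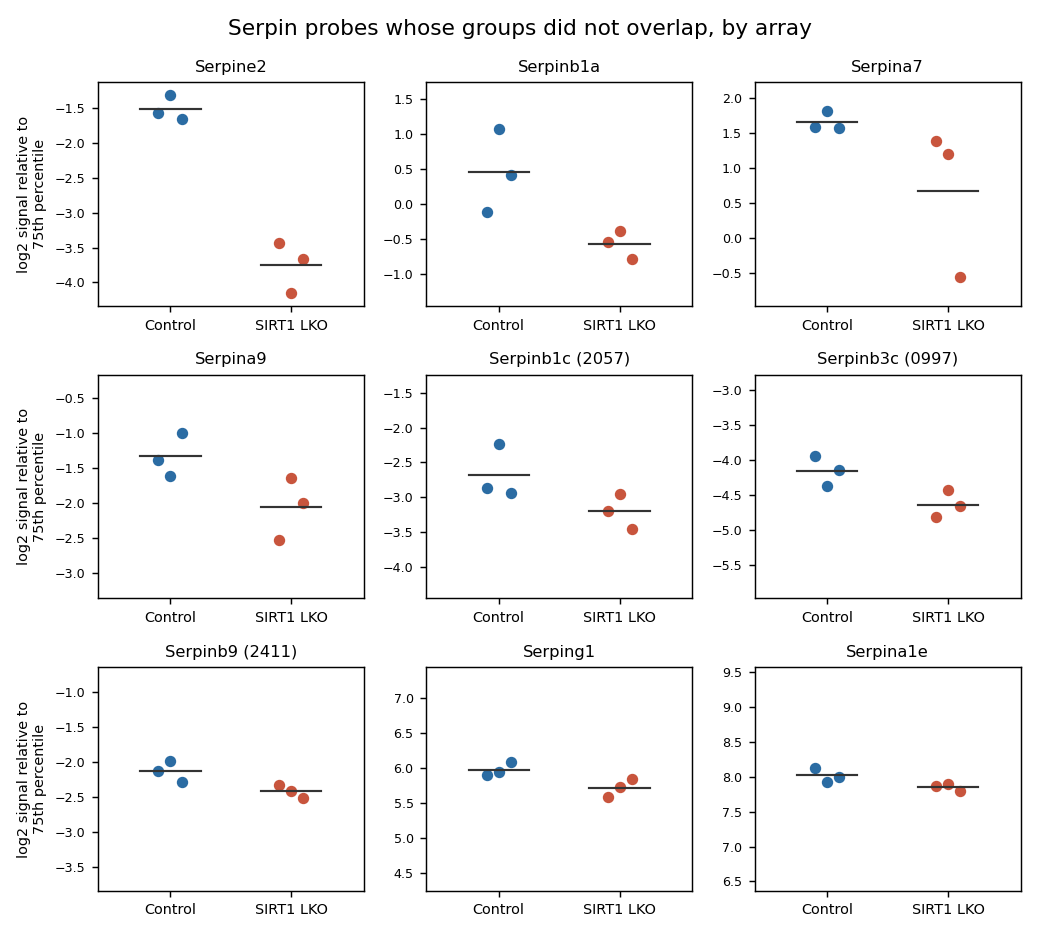
Log2 signal by array (vertical axis, relative to the 75th percentile) for the 9 Serpin probes whose Control (blue) and SIRT1 LKO (red) pools did not overlap; bars are means of 3 pools. Axes cover at least 3.2 log2 units in each panel, so that the gap of Serpine2 (-2.23) and that of Serpina1e (-0.16) can be compared by eye.

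The plasma serpins read by the brightest probes differed little. The 14 tested probes of 11 genes at a mean level of 5 or more spanned -0.26 to 0.19, and 13 of them lay within 0.2. Their median absolute difference was 0.12, the same as over the 1248 tested probes of all genes at that level. Such probes made up 35% of the tested Serpin probes and 5.29% of all tested probes. For alpha-1-antitrypsin, which protects lung tissue from neutrophil elastase, the Serpina1d probe gave 8.97, 9.03 and 9.09 in Control and 9.05, 8.95 and 8.71 in LKO pools. The groups overlapped, with a difference of -0.13 (95% interval -0.41 to 0.15). The Serpina1b probe differed by 0.12 (95% interval -0.13 to 0.37). The Serpina1e probe differed by -0.16 (-0.39 to 0.07), with levels of 8.13, 7.93 and 8.0 in Control and 7.87, 7.90 and 7.80 in LKO pools, which did not overlap. The Serpina1d probe is annotated with transcripts of Serpina1c, Serpina1d and Serpina1e, and the Serpina1e probe with those of Serpina1b, Serpina1c, Serpina1d and Serpina1e, so the copies cannot be told apart by them. In the value table the Serpina1d difference was 0.05.

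The Serpina3 genes, mouse relatives of human antichymotrypsin, showed no member past the threshold. Serpina3k had 2 tested probes, at -0.12 and 0.12, and Serpina3m was at -0.01. Serpina3c was 4.07, 4.22 and 4.29 in Control and 4.25, 4.40 and 4.88 in LKO pools. The groups overlapped and the difference was 0.31 (95% interval -0.11 to 0.74). Serpina3n, an acute-phase gene in mice, was 3.77, 3.67 and 3.82 in Control and 3.35, 3.52 and 4.14 in LKO pools, so LKO pools 1 and 2 were below every Control pool and pool 3 above. Its difference was -0.08 with all pools and -0.32 without LKO pool 3. Serpina3g was 1.41, 0.77 and 0.08 in the Control pools, and both Serpina3f probes were likewise highest in Control pool 1 and lowest in Control pool 3, at -1.48 and -2.97 in one probe and -1.76 and -3.33 in the other. The spread among Control pools thus exceeded the group differences of -0.12, -0.43 and -0.25. With the value table for LKO pool 3 these differences were 0.28, 0.04 and 0.17.

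Of the plasma inhibitors of clotting and fibrinolysis, the tested probes of Serpinc1, Serpind1, Serpinf2 and Serpina10 differed by no more than 0.13. Serpinc1, antithrombin, had 2 probes with differences of 0.00 (95% interval -0.31 to 0.32) and 0.04 (-0.23 to 0.30). Serpind1, heparin cofactor II, was 7.29, 7.30 and 7.24 in Control and 7.35, 7.32 and 7.25 in LKO pools. The groups overlapped, with a difference of 0.03 (-0.18 to 0.24). Serpinf2, alpha-2-antiplasmin, differed by 0.13 (-0.13 to 0.39), and Serpina10, the protein Z-dependent inhibitor, by 0.01 and -0.07 in 2 probes. In the latter the Control pool 3 spot was an outlier and was left out, so that Control rests on 2 pools there. Serpinf1, pigment epithelium-derived factor, which does not inhibit proteases, differed by -0.08 and -0.05. Serping1, the C1 inhibitor of complement and kallikrein, was 5.90, 5.94 and 6.09 in Control and 5.59, 5.72 and 5.84 in LKO pools. Every LKO pool was below every Control pool, but the difference of -0.26 (SE 0.11) did not pass (adjusted p = 0.233).

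The hormone carriers differed in opposite directions and neither passed. Serpina6, corticosteroid-binding globulin, differed by 0.19 (95% interval -0.14 to 0.52). Serpina7, thyroxine-binding globulin, was 1.58, 1.81 and 1.57 in Control and 1.38, 1.2 and -0.56 in LKO pools. All LKO pools were below Control, and pool 3 was far below the other two. The difference was -0.98 (SE 0.50, adjusted p = 0.305). The value table put LKO pool 3 at 0.74, giving -0.55, and without it the difference was -0.36. Serpinh1, the collagen chaperone of the endoplasmic reticulum, was 1.47, 1.53 and 1.61 in Control and 2.25, 2.01 and 1.17 in LKO pools. Pools 1 and 2 were above Control and pool 3 below, for a difference of 0.28 (SE 0.27, adjusted p = 0.581). In the value table pool 3 was 2.18 and the difference of 0.61 passed (adjusted p = 0.0492), and without the pool it was 0.60.

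Clade B held 4 of the 9 probes with separate groups, among 9 tested (44.4%), and none passed the test. Of all tested probes 14.0% lay wholly lower, and of the 13305 with a mean level below 0, where all but 1 of these 9 lie, 2015 did. Serpinb1a, an inhibitor of neutrophil serine proteases, was -0.11, 1.07 and 0.42 in Control and -0.54, -0.39 and -0.78 in LKO pools. All LKO pools were lower, though the Control pools spread widely. The difference was -1.03 (SE 0.29, 95% interval -1.73 to -0.33, adjusted p = 0.133), and with array weights -1.25 (adjusted p = 0.0255). With those weights 4836 of all 23578 tested probes passed, and Serpinb1a passed in 1 of 18 alternative settings. Serpinb1c differed by -0.52 (adjusted p = 0.246). Serpinb3c, of the squamous cell antigen group, was -3.94, -4.37 and -4.14 in Control and -4.82, -4.43 and -4.66 in LKO pools. The groups lay close together, with a difference of -0.49 (adjusted p = 0.156). The other probe of Serpinb3c, like that of Serpinb1c, was above background on no array. Serpinb9, the granzyme B inhibitor, had 2 probes at -0.29 and -0.44 (adjusted p = 0.224 and 0.222), and with the value table these were -0.09 and -0.19. Serpinb6a, Serpinb6b and Serpinb6c differed by 0.09, -0.04 and 0.12, and Serpinb8 by -0.26.

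Markers of leukocytes were read beside these genes. Of 8 macrophage markers 1 was higher and 7 lower, with a median difference of -0.22 and summed levels of 6.06 to 6.79 in Control and 6.20 to 6.49 in LKO pools. These directions depended on the source of LKO pool 3. With the value table Lyz2 and Vsig4 differed by -0.12 and -0.20, and the other macrophage markers by 0.03 to 0.58. Of 3 tested neutrophil markers 1 was higher and 2 lower (summed -1.56 to -0.74 and -1.16 to -0.94), and S100a8 and Camp were above background on no array. Of 5 lymphocyte markers 2 were higher and 2 lower (summed -0.25 to 0.51 and -0.50 to 0.19). With the value table Cd79b, Cd3e, Nkg7 and Cd3d differed by 0.06, 0.27, 0.63 and 0.67, and Ms4a1 by -0.42. Of the neutrophil markers, S100a9 and Lcn2 then differed by 0.15 and 1.03, and Mpo by -0.01. None of the leukocyte markers passed the test, and their part in the clade B values was not tested.

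Low-signal probes of the family were mostly lower with the scanner file. Of 15 tested Serpin probes with a mean level below 0, 13 were lower, 6 had separate groups and the median difference was -0.31. The count of lower probes depended on the source of LKO pool 3. With the value table the tested probes of Serpina12, Serpina3f and Serpinb6b were higher. Those of Serpine2, Serpina9, Serpinb1a, Serpinb1c, Serpinb3c, Serpinb8 and Serpinb9 stayed lower. Over all 13305 tested probes with a mean level below 0 the median was -0.01 and 2015 had LKO wholly below Control. Besides Serpine2 and the clade B genes the low-signal Serpin probes include Serpina9, a serpin of germinal-centre B cells. It was at -1.39, -1.62 and -1.0 in Control and -2.54, -1.65 and -2.01 in LKO pools. The highest LKO pool was just below the lowest Control pool, and the difference was -0.73 (SE 0.26, adjusted p = 0.186). Of the B-cell markers, Ms4a1 was -2.90, -3.52 and -3.67 in Control and -4.50, -3.91 and -4.32 in LKO pools, without overlap, a difference of -0.88 (adjusted p = 0.129). The value table put Ms4a1 at -2.94 in LKO pool 3, so that the groups overlapped, and its difference at -0.42 (limma adjusted p = 0.543). Cd79b differed by -0.34 (adjusted p = 0.448), and with the value table by 0.06 (adjusted p = 0.906). Cd79a was above background on 1 array of each group and was not tested. The part of these markers in the Serpina9 value was not tested. Serpina5, the protein C inhibitor, differed by 0.40 (95% interval -0.51 to 1.31), and Serpina12, vaspin, by -0.31. At levels above 0, both probes of the pseudogene Serpina4-ps1 varied more among pools than between groups, at -0.30 and -0.29. Serpina11 differed by 0.01.

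Many members depended on the source used for LKO pool 3. Of the 40 tested probes 14 differed by more than 0.5 between scanner file and value table, 11 higher in the table and 3 lower. The median gap was 0.24 and the lowest was -2.09, for a Serpina4-ps1 probe. The group difference changed sign for 9 probes with the value table and for 3 without the pool. Of 19 genes with 2 probes, 7 had both tested, and in 4 of these both differences had the same sign.

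**Figure D4:**
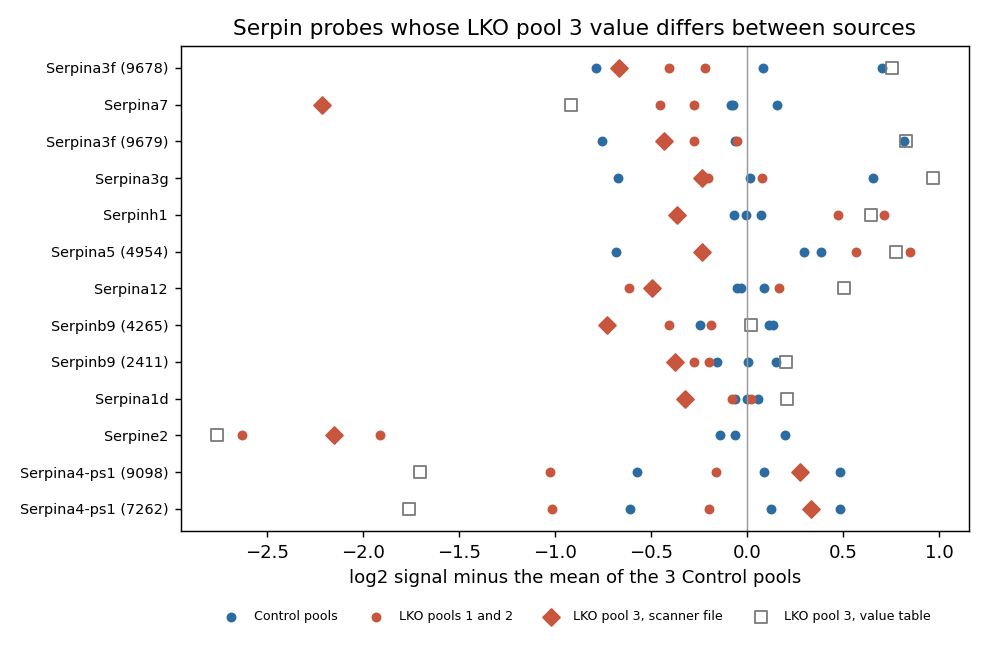
Log2 signal minus the mean of the 3 Control pools (horizontal axis) for 13 of the 14 tested Serpin probes whose LKO pool 3 value differed by more than 0.5 between the scanner file (diamonds) and the value table (open squares), with Control pools in blue and LKO pools 1 and 2 in red; brackets hold the last 4 characters of a probe name. Serpine2 is below Control in both sources, whereas Serpinh1 changes side.

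The proteases, receptors and other genes with which serpins act gave no member past the threshold in 8 lists, with the scanner file and all pools. Without LKO pool 3, where 698 of all 23578 tested probes passed, Spint2 (1.07), Timp2 (-0.78), Col4a2 (-1.05), Col4a1 (-0.83) and Cebpb (0.64) did. Their limma adjusted p was 0.042 to 0.0485. Among 28 tested proteases and cofactors of coagulation, kallikrein and complement, 15 were higher and 12 lower (median 0.02), and those of smallest p were F3 (tissue factor) at 0.41 and C4b at -0.32. In the plasminogen system 5 of 10 were higher and 5 lower (median 0.00), with Plaur, the urokinase receptor, at 0.39 and St14 at -0.20, and urokinase itself (Plau) was above background on no array. The list of leukocyte and digestive proteases held Cela1 also under its older name Ela1, and both entries were lower. Of its 11 tested entries 2 were higher and 9 lower (median -0.27), with Ctsg, cathepsin G, at -0.62 (adjusted p = 0.0871) and Ctrl at -0.42. Those figures are differences on the log2 scale, as are the next.

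Of 8 clearance receptors 7 were higher and 1 lower (median 0.10), with Asgr2, a subunit of the asialoglycoprotein receptor, at 0.20. Of 10 genes of hormone carriage and angiotensin 8 were higher and 2 lower (median 0.06), with Ace at -0.36 and Agtr1a at 0.17. Among 23 other protease inhibitors 8 were higher and 15 lower (median -0.06), with Timp2, an inhibitor of matrix metalloproteinases, at -0.65 (adjusted p = 0.101) and Cstb at -0.27. The medians of these lists lay within 0.2 of 0. Of 13 genes of collagen and its folding, the clients and partners of Serpinh1, 5 were higher and 8 lower (median -0.10), with the basement membrane collagens Col4a2 at -0.93 (adjusted p = 0.07) and Col4a1 at -0.70 (adjusted p = 0.0855). Of 22 liver regulators 12 were higher and 10 lower (median 0.06), with Stat3 at -0.27. Cux2 was not well above background on any Control array and entered the test through the LKO arrays alone. It was at least 1.09-fold higher in LKO pools (adjusted p = 0.0776). That bound takes the dimmest probe above background on each Control array as the level there, or the Cux2 value itself where that was higher. The value table put Cux2 in LKO pool 3 at -6.69, close to Control pool 2 at -6.73, and its difference at 1.55 (limma adjusted p = 0.162).

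Other marker lists also had no member past the threshold with the scanner file and all pools. Hepatocyte markers were 5 higher and 3 lower of 8 (median 0.14), with summed levels of 10.47 to 10.71 in Control and 10.56 to 10.77 in LKO pools, as the tissue label has it. Median differences were 0.03 for 6 endothelial markers, 0.19 for 5 cholangiocyte markers, -0.02 for 3 of platelets and 0.00 for 3 of adipocytes, whose Plin1 and Lep were above background on no array. Single markers stood apart from these medians. Cfd, an adipocyte-secreted complement protease, was -2.22, 0.08 and -1.46 in Control and -3.40, -4.29 and -6.23 in LKO pools, above background in 2 of the latter, a difference of -3.44 (adjusted p = 0.113). The value table put Cfd in LKO pool 3 at -3.99 and its difference at -2.69 (limma adjusted p = 0.0661). Without that pool the Cfd difference was -2.65 (limma adjusted p = 0.0828). Fabp4, of the same list, was higher in every LKO pool, by 0.29 (adjusted p = 0.187). Sox9, of the cholangiocyte list, was lower in every LKO pool with the scanner file, with a difference of -1.12 (adjusted p = 0.0649). The value table put its LKO pool 3 at -1.58, above every Control pool, and the difference at -0.65 (limma adjusted p = 0.289). Without that pool the Sox9 difference was -1.06 and passed (limma adjusted p = 0.0474), as did 698 of all 23578 tested probes. Cfd, Fabp4 and Sox9 were named after their values were seen. Median differences of the remaining lists were -0.15 for 4 of exocrine pancreas, -0.04 for 4 of keratinocytes and -0.30 for 2 of testis and epididymis.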

How the data were processed

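Each pool was labelled with Cy3 and read on 1 array. Per the submitters' processing notes the scans were read with Agilent Feature Extraction 9.5, and per the file headers its processed intensity is background-corrected within the array. A deposited table gives a linear intensity for each probe, neither centred nor scaled across samples, and equals the processed intensity in 5 samples. Its difference in LKO pool 3 (median ratio 0.719) is unexplained in the sources used here.

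After control spots and outlier spots had been removed, the log2 processed intensity of the scanner file was averaged over the spots of a probe, less each array's 75th percentile. The Serpin members, lists and named probes were chosen with earlier results of these data known. Named were each Serpin probe past the threshold, the 5 rises and 5 falls of smallest p, the brightest probe of a fixed set of serpins, and the 2 members of smallest p in each list; other members are described by the family rule. The difference was fitted per probe with limma 3.58.1 in R 4.3.3, two-sided, and the steps were tested on simulated data. Of the 73 probes 63 were named through their RefSeq accession (GRCm38.p6). Probe coordinates are on mm7 as in the files, and no genome was used here. Promoters are RefSeq's. Figures used matplotlib 3.10.9. There were 18 alternative settings. Results of 2 genes so chosen are not reported here.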

Additional observations from a re-analysis of the deposited data

How the results depend on the processing

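The count of all probes past the limma threshold, 15, was 0 with normexp (1565 at an unadjusted p under 0.05), no filter on dim probes (6858), the slide as a random block (2633) and the replicate block (4366). It was 49 with probes above background on all 6 arrays, 24 with the brightest probe of each gene, 91 with an intensity trend and robust variance, 4836 with array weights and 308 with the value table, and 0 to 698 with 1 pool left out, the highest without LKO pool 3. The Serpin count of 1 was 0 with normexp (2 at an unadjusted p under 0.05), no filter (10), slide block (2) and replicate block (6), 2 with array weights and with the value table, and 0 to 1 with 1 pool left out. The 9 Serpin probes with separate groups (28.9% of all tested probes) were 5 with normexp (15.5%), 21 without the filter (29.7%) and 13 with the value table (34.1%, 6 higher and 7 lower), and 10 to 17 with 1 pool left out (33.8% to 51.7%), with 7 higher and 10 lower without LKO pool 3. The replicate numbers did not pair the samples (correlations of deviations 0.01, -0.04 and -0.09), and with the replicate block Serpine2 had an adjusted p of 0.187. The median difference of the Serpin probes, -0.10, was 0.03 with the value table and -0.26 without the filter, where the median of all probes was -0.10, and lay between -0.12 and -0.06 in the other settings.

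Of 520 values of 29 named probes under the alternatives, 35 lay on the other side of 0 before rounding and 27 also after rounding to 2 decimals, all in probes past the threshold in neither setting; the cause was not tested. With normexp these were Serpina6 -0.11, Serpinf2 -0.11, Serpina1b -0.19, Serpinb3c 0.13, Serpina10 -0.21, Serpina11 -0.03, Serpina12 0.15, Serpinb8 0.04, Serpinc1 -0.05 and Serpind1 -0.10. With quantile normalization they were Serpina10 -0.03, Serpina11 -0.02, Serpina3m 0.02 and Serpinc1 0.00, with median centring Serpinc1 0.00, with the slide block Serpinc1 -0.02 and with array weights Serpina3m 0.02. With the value table they were Serpina10 -0.14, Serpina1d 0.05, Serpina12 0.02, Serpina3f 0.04, Serpina3g 0.28 and Serpina3m 0.12. With 1 pool left out the ranges over these probes were -0.08 to 0.11 for Serpina10 (sign changed at -0.08, 0.00 and -0.06), -0.06 to 0.07 for Serpina11 (-0.06 and -0.01), -0.45 to 0.21 for Serpina3g, -0.05 to 0.05 for Serpina3m (0.03 and 0.05), -0.32 to 0.08 for Serpina3n and -0.07 to 0.11 for Serpinc1 (-0.06, -0.07 and -0.04).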
